A study of Mus musculus with 2 samples.

Results

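The genes described are the nuclear genes of oxidative phosphorylation, sorted by the complex to which their symbol assigns them. They were taken by symbol as the names that start with Ndufa, Ndufb, Ndufc, Ndufs or Ndufv (complex I), the names Sdha, Sdhb, Sdhc and Sdhd (complex II), the names that start with Uqcr together with Cyc1 (complex III), those that start with Cox4 to Cox8 (complex IV) and those that start with Atp5 (complex V). This gave 93 of the 23418 genes in the deposited table, with 45 in complex I, 4 in complex II, 9 in complex III, 18 in complex IV and 17 in complex V. Not all of them encode subunits. The complex I names include 7 assembly factors (Ndufaf), and Atp5s and Atp5sl carry complex V names without being structural subunits of the enzyme. Poly-A RNA was taken from mouse embryos that had received siRNA to Dnmt1, the enzyme that copies DNA methylation after replication (siDnmt1, 1 pool of 20 embryos), or a scrambled siRNA (scrambled, 1 pool of 20). All embryos were of the C57BL/6 background and were collected between the 4-cell and 8-cell stages. Each group is thus 1 library, no difference has a replicate check, and no p-value can be given.

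Oxidative phosphorylation is the stage of respiration that takes place in the inner mitochondrial membrane. Complex I (NADH dehydrogenase) and complex II (succinate dehydrogenase) pass electrons to coenzyme Q, complex III passes them on to cytochrome c, and complex IV (cytochrome c oxidase) hands them to oxygen. The proton gradient built by complexes I, III and IV drives complex V, the ATP synthase. Most subunits are encoded in the nucleus and a few central ones in mitochondrial DNA. Cleavage-stage mouse embryos carry mitochondria inherited from the oocyte and rely mainly on pyruvate and lactate rather than glucose for energy.

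The siDnmt1 library held 12236615 counts and the scrambled library 11675483, of which Rn45s, the ribosomal RNA precursor, took 37.3% and 29.9%. Dnmt1 itself had 687 counts in siDnmt1 and 847 in scrambled. The 9 cleavage-stage and oocyte markers all had a count and summed to 2510 in siDnmt1 and 3220 in scrambled. Of the 7 that reached the minimum used below, Dppa3 (70 and 194) and Zp3 (13 and 42) were at least 2-fold lower. Tdgf1 (344 and 163) was at least 2-fold higher. Of all genes that reached the minimum, 16.7% were lower and 12.5% higher by that measure. The other markers compared lay within 2-fold, among them Pou5f1 (1489 and 2152), Nlrp5 (189 and 257) and Eif1a (375 and 367). Markers of sperm were listed at 0 in both libraries for all 6 genes. The 10 cumulus and granulosa cell markers summed to 8 counts in siDnmt1 and 0 in scrambled. These counts were of Star (6 and 0) and Cyp11a1 (2 and 0), and the others, Has2, Amh, Foxl2 and Fshr among them, were at 0. The 3 blood cell markers summed to 16 and 6, all of Ptprc, with Hbb-b1 and Hba-a1 at 0. In pools of embryos, fewer cells and less RNA per cell cannot be told apart. The 13 respiratory genes of mitochondrial DNA were not analysed here.

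Most of the nuclear oxidative phosphorylation genes that could be compared had fewer counts in the siDnmt1 library. Ratios were taken as log2((siDnmt1 + 5)/(scrambled + 5)) for genes whose 2 libraries averaged 20 counts or more, a minimum that 26 of the 93 genes reached. On that scale 15 of the 26 were at least 2-fold lower in siDnmt1, where 16.7% of all 7315 genes compared were. At least 2-fold higher was 1 of the 26, against 12.5% of all genes. Fewer counts of any size in siDnmt1 were seen for 21 of the 26, against 50.8% of all genes. The median log2 ratio of the 26 was -1.19, and that of all genes compared was -0.02. Equal totals without Rn45s gave 14 lower and 3 higher of the 25 genes compared under that scaling, with a median of -1.09. All genes then had 14.8% lower and 14.5% higher, with a median of 0.07.

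Transcript length moved with these differences and has to be read beside each of them. Among all genes compared, the median log2 ratio was -1.24 for the 58 genes of up to 800 nt, -1.18 for the 198 genes from there to 1200 nt, -0.67 for the 311 genes to 1600 nt and 0.16 for the 3324 genes above 4000 nt. The median length of the 93 oxidative phosphorylation genes was 1129 nt. Of the 28 with up to 800 nt, 5 reached the count minimum, and 4 of those 5 were at least 2-fold lower, where 58.6% of all genes of that length class were. From 800 to 1200 nt, 4 of 6 were at least 2-fold lower, where 60.6% of all genes were, and from 1200 to 1600 nt 2 of 3, where 38.6% were. From 1600 to 2400 nt it was 4 of 7, where 21.5% of all genes were. From 2400 to 4000 nt, 1 of 5 was lower and 1 higher, where 16.7% and 13.0% of all genes were. After removal of a smooth trend on the longest annotated transcript, 6 of the 26 genes were past 2-fold on the lower side and 3 on the higher side, and their median was -0.22. Over all genes the shares were then 14.0% lower and 12.9% higher, so the share of the 26 on the higher side was near that of all genes. With the trend taken on the median transcript of each gene instead, 13 were lower and 3 higher, with a median of -0.96, where 15.6% and 13.2% of all genes were. The 2-fold calls of Cox7a1 and Atp5c1 ended under that trend. Across the 26 genes, Spearman's rho between length and log2 ratio was 0.55, and across 7273 genes with a length it was 0.24. These are descriptions over genes of the same 2 libraries.

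**Figure D1:**
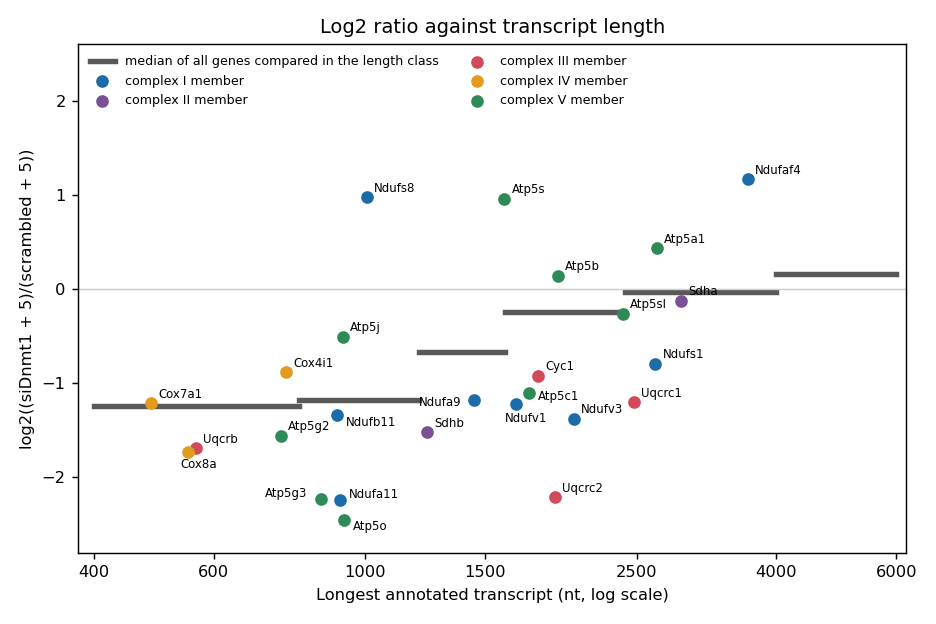
Log2 ratio of each of the 26 genes compared (points, coloured by complex) against the length of its longest annotated transcript in nt on a log axis, with grey bars for the median log2 ratio of all genes compared in the same length class (the first and last classes are open-ended and drawn to the edge). Uqcrc2 at -2.21 lies far under the bar of its class, while Cox7a1 at -1.21 lies on its own.

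Weighting by counts gave another picture, since Atp5a1 and Atp5b held 69.1% of all counts of the 93 genes in siDnmt1 and 46.8% in scrambled. The sum over all 93 genes was 6302 counts in siDnmt1 and 7932 in scrambled, 1.26-fold lower with a 95% interval of 1.22 to 1.30. Without Atp5a1 and Atp5b the sums were 1948 and 4216, 2.16-fold lower (2.05 to 2.28). By complex, the sums were 724 against 1255 for complex I, 120 against 177 for complex II, 283 against 854 for complex III, 354 against 1072 for complex IV and 4821 against 4574 for complex V. The folds were therefore near 3 for complexes III (3.02) and IV (3.03) and smaller for complexes I (1.73) and II (1.48). A few genes weigh heavily in these sums. Without Cox8a, complex IV had 139 against 346 (2.49-fold lower, 2.04 to 3.05). Without Atp5a1 and Atp5b, complex V had 467 against 858 (1.84-fold lower, 1.64 to 2.06). In complex III, Uqcrc1 (136 and 320) and Uqcrc2 (74 and 361) held most of the counts. Intervals here and below are Clopper-Pearson intervals of the ratio of counts, which cover counting error only. The labels name no molecular identifiers, so counts are not taken as independent molecules.

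**Figure D2:**
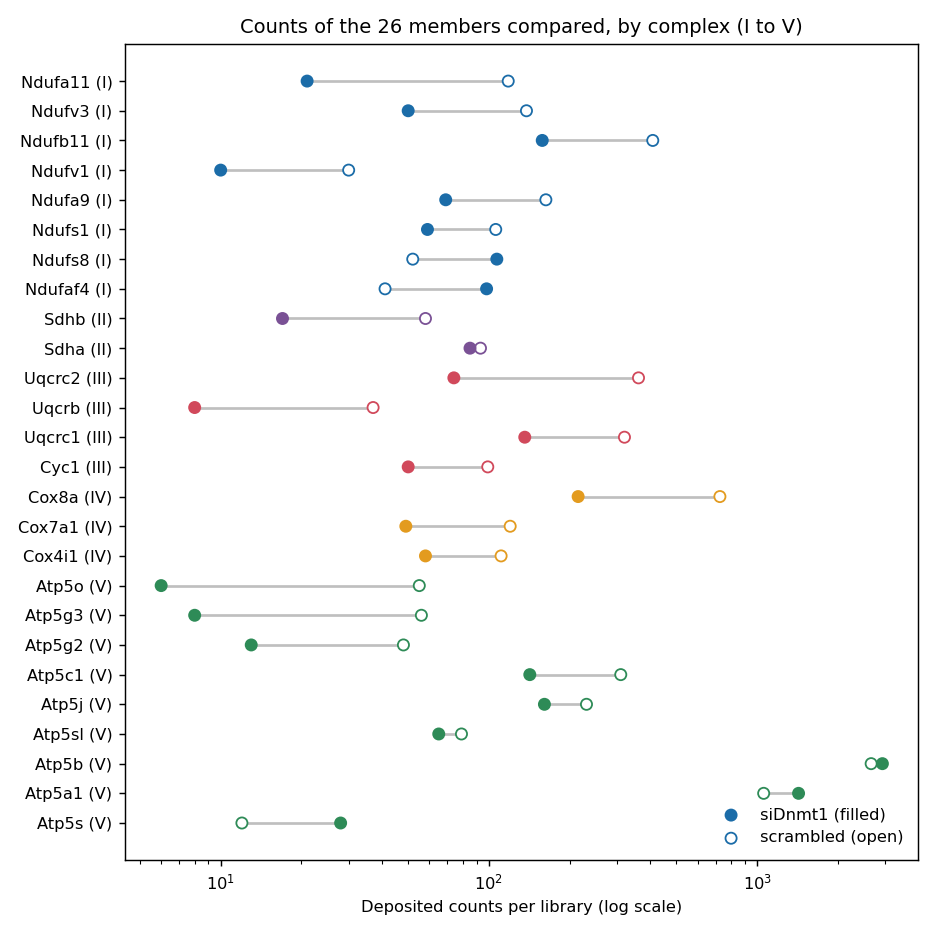
Deposited counts of the 26 genes compared on a log axis, siDnmt1 as filled and scrambled as open points joined by a grey line, grouped by complex (I to V). The filled point lies left of the open one for 21 genes, and right of it for Ndufs8, Ndufaf4, Atp5b, Atp5a1 and Atp5s.

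The promoters of these genes were searched for the letters bound by factors known for the control of respiratory genes: Nrf1 (its motif, shown in capitals below), the Ets family with Gabpa (CCGGAAG) and Yy1 (AANATGGC), each on both strands. Promoter windows of RefSeq on GRCm38.p6, from 250 bases before to 50 after a start, were matched for 76 of the 93 genes. The Nrf1 letters stood in a window of 19 of the 76 genes (25%), of 13.4% of the 5884 compared genes with a window and of 5.19% of all 27025 genes with a window. The Yy1 letters stood in 19 (25%), against 11.9% and 6.96%. The Ets letters stood in 17 (22.4%), against 23.3% and 9.93%. Hits of different motifs overlapped in 0 of the 82 windows of these genes. Of the 13 genes at least 2-fold lower that had a window, 6 held the Nrf1 letters (Ndufa11, Uqcrc1, Atp5c1, Atp5g2, Atp5g3 and Atp5o). Ndufaf4, which was higher in siDnmt1, and Sdha, which was within 2-fold, held them too. The windows of Atp5o, Atp5g3 and Uqcrc1 are shown, with the Nrf1 letters in capitals, because these genes held the letters and stayed past 2-fold lower after removal of the length trend. Ndufa11, which also did both, is not shown. They lie at chr16:91931581-91931880 on the minus strand (Atp5o), chr2:73911277-73911576 on the minus strand (Atp5g3) and chr9:108936398-108936697 on the plus strand (Uqcrc1, which holds 2 copies).
Atp5o: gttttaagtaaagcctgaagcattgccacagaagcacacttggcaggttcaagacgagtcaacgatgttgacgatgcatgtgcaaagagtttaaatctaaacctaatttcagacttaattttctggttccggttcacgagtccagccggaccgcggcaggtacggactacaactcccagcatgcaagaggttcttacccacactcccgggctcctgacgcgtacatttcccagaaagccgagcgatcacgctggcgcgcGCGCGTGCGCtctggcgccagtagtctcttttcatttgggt
Atp5g3: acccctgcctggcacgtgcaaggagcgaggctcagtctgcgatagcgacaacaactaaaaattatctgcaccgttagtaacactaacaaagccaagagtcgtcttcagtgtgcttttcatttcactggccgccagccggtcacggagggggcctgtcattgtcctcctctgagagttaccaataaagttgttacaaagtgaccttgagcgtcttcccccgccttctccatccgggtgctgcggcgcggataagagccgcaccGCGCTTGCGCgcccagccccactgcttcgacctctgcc
Uqcrc1: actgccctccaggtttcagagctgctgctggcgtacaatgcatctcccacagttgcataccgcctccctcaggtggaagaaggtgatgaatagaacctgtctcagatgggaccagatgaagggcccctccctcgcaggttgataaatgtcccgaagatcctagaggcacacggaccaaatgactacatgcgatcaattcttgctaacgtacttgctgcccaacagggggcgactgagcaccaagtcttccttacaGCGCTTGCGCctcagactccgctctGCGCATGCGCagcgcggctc
A match is a string of letters, and binding was not measured here.

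**Figure D3:**
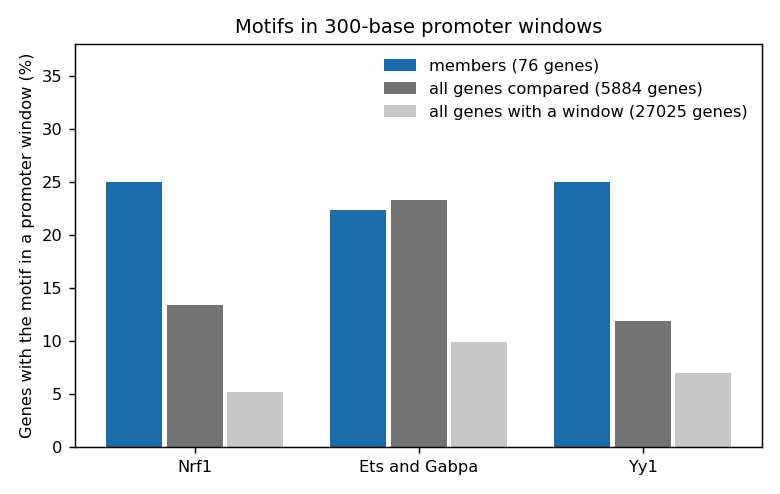
Percentage of genes with each motif in at least 1 promoter window, for the 76 oxidative phosphorylation genes with a window, the 5884 compared genes with a window and all 27025 genes with a window. The Nrf1 and Yy1 bars of the oxidative phosphorylation genes reach 25%, above both other bars, and the Ets bar at 22.4% is level with that of the compared genes at 23.3%.

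Complex I, the largest of the complexes, had 8 of its 45 genes above the count minimum, with 5 at least 2-fold lower and 1 past 2-fold on the higher side (median log2 ratio -1.20). The accessory subunits, which surround the catalytic core, had fewer counts in siDnmt1 for all 4 compared, against 50.8% of all genes compared. Of all 31 accessory subunits, 18 had fewer, 10 had more and 3 had no count, where 50.0% and 47.0% of all genes with a count had fewer and more. Ndufa11, an accessory subunit of the membrane arm, had 21 counts in siDnmt1 and 118 in scrambled (5.62-fold lower, 3.51 to 9.41). Ndufb11, another subunit of the membrane arm, had 158 and 408 (2.58-fold lower, 2.14 to 3.12). Ndufv3, of the module that takes electrons from NADH, had 50 and 138 (2.76-fold lower, 1.98 to 3.89). These 3 intervals lie clear of equality. Ndufa9, which sits where the peripheral arm meets the membrane arm, had 69 and 163 (2.36-fold lower). After removal of the trend on the longest transcript, the log2 ratios of Ndufa11 (-1.11) and Ndufv3 (-1.10) stayed past 2-fold, and those of Ndufb11 (-0.20) and Ndufa9 (-0.52) did not. The 31 accessory subunits summed to 374 counts in siDnmt1 and 948 in scrambled, 2.53-fold lower (2.25 to 2.86), with a median length of 971 nt.

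The 7 core subunits of complex I, which carry the flavin and the iron-sulfur clusters, did not share 1 direction. Ndufs8, an iron-sulfur subunit on the path to coenzyme Q, had 107 counts in siDnmt1 and 52 in scrambled (2.06-fold higher, 1.46 to 2.92). Its log2 ratio of 0.97 fell just short of the 2-fold mark on the scale with added counts and was 2.03 after removal of the length trend (1005 nt). Ndufv1, which binds NADH, had 10 and 30 (3.0-fold lower, 1.43 to 6.88), with a log2 ratio of -0.73 after removal of the length trend. Ndufs1, the largest iron-sulfur subunit, had 59 and 106 (1.80-fold lower, 1.29 to 2.51). The core subunits under the count minimum included Ndufv2 with 14 counts against 3 and Ndufs7 with 10 against 5, both with more counts in siDnmt1, and the interval of Ndufs7 includes equality. The core subunits together summed to 216 in siDnmt1 and 208 in scrambled. Ndufs8 decides this near equality, since without it the sums were 109 and 156, 1.43-fold lower (1.11 to 1.85). The difference between core and accessory subunits was not tested.

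The assembly factors of complex I, which build the enzyme and leave it, went both ways. Ndufaf4 was the only 1 of the 26 genes at least 2-fold higher, with 98 counts in siDnmt1 and 41 in scrambled (2.39-fold, 1.64 to 3.53). Ndufaf7, a methyltransferase that modifies a core subunit, lay under the count minimum with 30 against 6 (5.0-fold higher, 2.05 to 14.7). Ndufaf1 had 4 against 29 (7.25-fold lower, with an interval from 2.55). Ndufaf2 had 0 against 13 and was at least 4.33-fold lower when set at a floor of 3 counts, with a lower counting limit of 3.05. The log2 ratio of Ndufaf4 stayed at 1.16 after removal of the length trend. Of the other complex I genes under the minimum, Ndufb7 had 2 against 18, Ndufa10 9 against 17, Ndufb10 16 against 10 and Ndufb9 10 against 5, and the intervals of Ndufa10, Ndufb10 and Ndufb9 include equality. Ndufa4, a gene with a complex I name whose protein is now counted to complex IV, had 3 against 0.

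Complex II had 2 of its 4 genes above the minimum, 1 of them at least 2-fold lower, where 16.7% of all genes compared were. Sdhb, the iron-sulfur subunit, had 17 counts in siDnmt1 and 58 in scrambled (3.41-fold lower, 1.96 to 6.25). Sdha, the flavoprotein that oxidises succinate, had 85 and 93 (1.09-fold lower, 0.807 to 1.49), so equality lies within its counting error. The membrane anchors were low, with 8 against 16 for Sdhc and 10 against 10 for Sdhd. The log2 ratio of Sdhb moved to -0.67 when the length trend was removed (1232 nt).

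Complex III had 4 of its 9 genes above the minimum, and all 4 had fewer counts in siDnmt1, 3 of them at least 2-fold (median log2 ratio -1.45). Of all genes compared, 50.8% had fewer counts and 16.7% were at least 2-fold lower. The core proteins Uqcrc1 and Uqcrc2 face the matrix and are not themselves redox subunits. Uqcrc2 had 74 counts in siDnmt1 and 361 in scrambled (4.88-fold lower, 3.79 to 6.35). Its log2 ratio of -2.21 was matched or undercut by 3.42% of all genes compared. Uqcrc1, whose window is printed above, had 136 and 320 (2.35-fold lower, 1.92 to 2.90). Both have longer transcripts than most of these genes (2473 nt for Uqcrc1 and 1896 nt for Uqcrc2), and after removal of the length trend their log2 ratios were -1.06 for Uqcrc1 and -1.88 for Uqcrc2, still past 2-fold. Cyc1, the cytochrome c1 subunit that hands electrons to cytochrome c, had 50 and 99 (1.98-fold lower, 1.40 to 2.84). Uqcrb, a small subunit near the coenzyme Q site, had 8 and 37 (4.62-fold lower, 2.12 to 11.5). With a transcript of 565 nt, its log2 ratio went to -0.15 without the length trend. Uqcrfs1, the Rieske iron-sulfur protein, had 1 count against 14. Uqcrc2 shares 19.7% of its exon bases with Pdzd9 on the opposite strand, and Pdzd9 was listed at 0 counts in both libraries.

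Complex IV had 3 of its 18 genes above the minimum, all lower in siDnmt1 and 2 of them at least 2-fold (median log2 ratio -1.21). Its genes are short, with a median of 669.5 nt. At least 2-fold lower were 16.7% of all genes compared, but 58.6% of those of up to 800 nt, the length class of the 3. Cox8a, a small subunit of the membrane domain, had 215 counts in siDnmt1 and 726 in scrambled (3.38-fold lower, 2.90 to 3.95). Per kb of transcript it had 391 and 1320 counts, the second highest level of the 93 genes in the scrambled library after Atp5b (1528 in siDnmt1 and 1388 in scrambled). Cox4i1, the nuclear subunit that binds ATP in the regulation of the enzyme, had 58 and 111 (1.91-fold lower, 1.38 to 2.68). Cox7a1 had 49 and 120 (2.45-fold lower, 1.74 to 3.49). After removal of the length trend the log2 ratios of Cox8a, Cox7a1 and Cox4i1 were -0.17, 0.45 and 0.41, so that none stayed past 2-fold and Cox7a1 and Cox4i1 changed sign. The other 15 genes, all under the minimum, summed to 32 and 115 counts (3.59-fold lower, 2.41 to 5.50). Among them Cox7b had 0 against 21, Cox7a2 0 against 16, Cox5a 0 against 10 and Cox5b 2 against 14. At a floor of 3 counts, Cox7b was at least 7.0-fold, Cox7a2 at least 5.33-fold and Cox5a at least 3.33-fold lower. The floor takes the scrambled count as exact, and the lower 95% counting limits of these folds were 5.21 for Cox7b, 3.86 for Cox7a2 and 2.24 for Cox5a. Cox6a1 had 8 against 19, with an interval that includes equality.

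Several complex IV subunits come as a common form and a form restricted to certain tissues. For subunit 7a the form known from heart and skeletal muscle, Cox7a1, had more counts than the common Cox7a2 in both libraries, 49 against 0 in siDnmt1 and 120 against 16 in scrambled, on transcripts of 485 nt (Cox7a1) and 659 nt (Cox7a2). Per kb, Cox7a1 had 101 counts in siDnmt1 and 247 in scrambled. The related Cox7a2l, known for joining complexes III and IV, had 8 and 9. The other restricted forms had at most 10 counts in a library. The muscle forms Cox6a2 and Cox8b had no count in either library (0), and neither did Cox7b2. Cox8c had 0 and 1, Cox6b2 had 1 and 0 against 1 and 7 for the common Cox6b1, and Cox4i2 had 1 and 10 against 58 and 111 for Cox4i1. The promoters of the 7a pair are shown because they differ in CpG dinucleotides, the sites of DNA methylation, which stand in capitals. The Cox7a1 window (chr7:30183921-30184220, plus strand) holds 7 CpG, and the Cox7a2 window (chr9:79759804-79760103, minus strand) holds 20.
Cox7a1: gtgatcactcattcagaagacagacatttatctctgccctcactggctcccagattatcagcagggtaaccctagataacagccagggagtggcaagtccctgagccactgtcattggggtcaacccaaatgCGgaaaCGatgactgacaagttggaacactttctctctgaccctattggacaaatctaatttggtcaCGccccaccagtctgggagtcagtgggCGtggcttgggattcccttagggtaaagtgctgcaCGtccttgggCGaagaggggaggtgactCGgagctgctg
Cox7a2: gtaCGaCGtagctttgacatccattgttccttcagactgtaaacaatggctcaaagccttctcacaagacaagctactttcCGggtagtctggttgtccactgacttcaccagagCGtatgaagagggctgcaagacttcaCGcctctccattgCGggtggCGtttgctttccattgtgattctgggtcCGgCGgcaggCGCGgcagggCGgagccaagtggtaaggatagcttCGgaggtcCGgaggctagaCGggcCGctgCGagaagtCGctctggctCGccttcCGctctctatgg
The median over all 82 windows of the oxidative phosphorylation genes was 20 CpG. Windows of all compared genes had a median of 22, and those of all genes 7. Methylation was not measured in these libraries.

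Complex V had 9 of its 17 genes above the minimum and 4 at least 2-fold lower (median log2 ratio -0.51), where 16.7% of all genes compared were. It held both the genes with the most counts and the lowest ratio of the 26. In the F1 head, where ATP is made, the subunits alpha and beta that form the catalytic ring were slightly higher in siDnmt1. Atp5b (beta) had 2928 counts in siDnmt1 and 2659 in scrambled (1.10-fold higher, 1.04 to 1.16), and Atp5a1 (alpha) had 1426 and 1057 (1.35-fold higher, 1.25 to 1.46). Neither lay outside the range of the middle 50% of all genes compared, which spanned log2 ratios of -0.67 to 0.57. Atp5c1, the gamma subunit that turns inside the ring, had 142 and 310 (2.18-fold lower, 1.78 to 2.68). Its log2 ratio of -1.10 was -0.66 without the trend on the longest transcript and -0.90 without that on the median transcript, so the 2-fold call ended under both. Atp5b had 20.6 times the counts of Atp5c1 in siDnmt1 and 8.58 times in scrambled. Atp5d (delta) had 15 against 8 and Atp5e (epsilon) 3 against 8. All 3 F1 genes compared kept their sign under every scaling and both length trends run.

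The 10 genes of the stalk and the membrane part of complex V had fewer counts in siDnmt1 in every case, 214 against 441 in sum (2.06-fold lower, 1.75 to 2.44). Of all genes with a count, 50.0% had fewer in siDnmt1. Of the 10, 6 lay under the count minimum and summed to 26 and 51 counts. The median length of the 10 was 929.5 nt, and the 50.0% is not matched for length. Of all genes compared from 800 to 1200 nt, 60.6% were at least 2-fold lower. Atp5o, the subunit that ties the peripheral stalk to the F1 head, had 6 counts in siDnmt1 and 55 in scrambled (9.17-fold lower, 3.95 to 26.1). Its log2 ratio of -2.45 was matched or undercut by 2.52% of all genes compared. The c subunit of the rotating ring is made from the genes Atp5g1, Atp5g2 and Atp5g3, which encode the same mature protein. Atp5g3 had 8 and 56 (7.0-fold lower, 3.32 to 17.0), Atp5g2 had 13 and 48 (3.69-fold lower, 1.97 to 7.43), and Atp5g1 had 6 and 7. After removal of the length trend, Atp5o (-1.33) and Atp5g3 (-1.04) stayed past 2-fold and Atp5g2 (-0.25) did not. Atp5f1 and Atp5h, of the peripheral stalk, had 15 against 24 and 3 against 11, both with intervals that include equality. Atp5o shares 12.7% of its exon bases with Donson on the same strand, which had 62 counts in siDnmt1 and 25 in scrambled.

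Atp5j, another peripheral stalk subunit, had 161 counts in siDnmt1 and 231 in scrambled (1.43-fold lower, 1.17 to 1.77). Its log2 ratio was -0.51, and 0.62 after removal of the length trend. In the window printed below, Atp5j starts head to head with Gabpa, which encodes an Ets factor known to bind promoters of respiratory genes. Gabpa had 498 counts in siDnmt1 and 255 in scrambled (1.95-fold higher, 1.68 to 2.28), the opposite direction. The Atp5j window printed here (chr16:84834927-84835226, minus strand) shares 247 bases with the Gabpa window (chr16:84834874-84835173, plus strand). Both are printed to show the shared stretch, which carries 1 Ets hit, in capitals and seen on opposite strands. Another annotated Atp5j window (chr16:84835576-84835875, minus strand), not printed, shares 0 bases with the Gabpa window and holds 0 Ets hits.
Atp5j: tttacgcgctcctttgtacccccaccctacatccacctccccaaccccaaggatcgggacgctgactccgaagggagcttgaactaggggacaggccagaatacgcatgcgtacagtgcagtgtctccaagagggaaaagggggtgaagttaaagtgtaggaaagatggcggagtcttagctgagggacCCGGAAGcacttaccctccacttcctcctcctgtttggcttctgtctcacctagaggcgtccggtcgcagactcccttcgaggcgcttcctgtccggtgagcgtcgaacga
Gabpa: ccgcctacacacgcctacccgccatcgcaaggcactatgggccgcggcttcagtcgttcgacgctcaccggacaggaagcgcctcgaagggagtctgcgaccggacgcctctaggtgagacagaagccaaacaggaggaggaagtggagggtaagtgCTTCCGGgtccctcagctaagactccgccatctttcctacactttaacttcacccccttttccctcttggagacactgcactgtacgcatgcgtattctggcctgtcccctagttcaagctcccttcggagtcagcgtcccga
The annotated exons of the 2 genes also overlap over 12.7% of the Atp5j exon bases. The library kit does not mark strand, so reads from that overlap cannot be told apart. Of the complex V names that are not structural subunits, Atp5s had 28 counts in siDnmt1 and 12 in scrambled (2.33-fold higher, 1.15 to 5.04), with a log2 ratio of 0.96 that is just under the 2-fold mark. Atp5sl had 65 and 79, with an interval that includes equality.

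**Figure D4:**
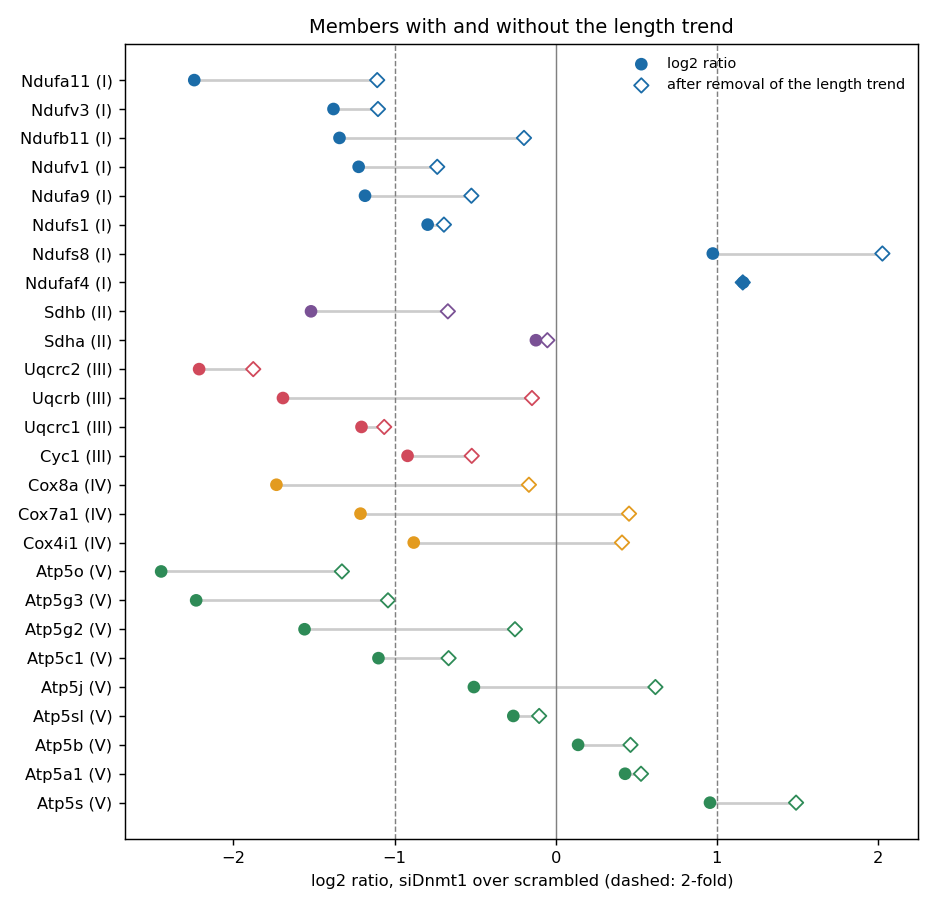
Log2 ratio of each of the 26 genes compared before (filled circles) and after (open diamonds) removal of the trend with transcript length, grouped by complex, with dashed lines at 2-fold. The diamonds of Ndufa11, Ndufv3, Uqcrc2, Uqcrc1, Atp5o and Atp5g3 stay left of the lower dashed line, and those of Ndufs8, Ndufaf4 and Atp5s lie right of the upper one.

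Of the 67 genes under the count minimum, 42 had fewer counts in siDnmt1 and 18 had more, 1 was equal above 0 (Sdhd) and 6 had no count. Among all 6286 genes with a count and a mean under the minimum, 49.0% had fewer in siDnmt1. The 67 summed to 261 and 444 counts (1.70-fold lower, 1.46 to 1.99), where all genes under the minimum summed to 32712 and 35578 (1.09-fold lower). Of the 87 oxidative phosphorylation genes with any count, 63 had fewer in siDnmt1 and 23 had more, where 50.0% and 47.0% of all genes with a count did. Of the same 87 genes, 14 were at 0 in siDnmt1 alone and 8 in scrambled alone, where 10.3% and 9.53% of all genes with a count were. These shares and sums over all genes are not matched for length. The 93 genes had a median of 1129 nt. Among all genes above the minimum, those of up to 800 nt had a median log2 ratio of -1.24 and those from 800 to 1200 nt of -1.18. A background by length was not taken for genes under the minimum. Genes at 0 in both libraries were Ndufab1, Ndufs5, Ndufa4l2, Cox6a2, Cox7b2 and Cox8b. Several of these low genes are subunits that every respiring cell is known to need, and 0 counts allow up to 3 counts of the library, so a count of 0 is not taken as absence of the transcript.

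Genes that serve the complexes from outside were counted in the same way, and each count is to be read against the 16.7% lower and 12.5% higher of all genes compared. Of the 34 assembly factors in the table that the symbols above do not cover, 13 could be compared, with 2 at least 2-fold lower and 0 higher (median log2 ratio -0.16), a lower share near that of all genes. Tmem70, which assists assembly of the ATP synthase, had 284 counts in siDnmt1 and 714 in scrambled (2.51-fold lower, 2.19 to 2.89), and Cox18, which inserts a complex IV subunit into the membrane, had 12 and 43. Coa5 (274 and 200) and Cox15, of heme A synthesis (141 and 130), had the highest log2 ratios of the 13. Of the 19 genes of coenzyme Q synthesis and electron carriers, 9 were compared and 0 passed 2-fold on the log2 scale in either direction (median -0.29). Pdss2 had 30 and 64, Coq7 58 and 114, Coq9 62 and 34, and Gpd2, the mitochondrial glycerol phosphate dehydrogenase, 4489 and 2646. The 9 compared had a median length of 3070 nt. Under the minimum, Cycs (cytochrome c) had 1 and 12, Etfa 6 and 29, Etfb 0 and 16, Adck4 2 and 15, and Coq3 0 and 7. Only Coq10a (2 and 1) had more counts in siDnmt1 among the genes of this list under the minimum. These low genes were named after their values were seen. Of the 13 enzymes of the tricarboxylic acid cycle, which supply the electrons, 11 were compared, with 3 at least 2-fold lower, against 16.7% of all genes, and 0 higher (median -0.28). Dlst, of the oxoglutarate dehydrogenase complex, had 202 and 452 (2.24-fold lower), while its partner Ogdh had 1719 and 1214. Suclg2, of succinyl-CoA ligase, had 17 and 202 (11.9-fold lower, 7.24 to 20.8). The third lower gene, Idh3a of isocitrate dehydrogenase, was named after its values were seen and had 48 and 103.

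Of the 19 regulators of respiratory genes and of mitochondrial DNA, 13 were compared, with 2 at least 2-fold lower and 0 higher (median log2 ratio 0.18), again a lower share near the 16.7% of all genes. Nrf1, the factor whose letters were searched above, had 728 counts in siDnmt1 and 1837 in scrambled (2.52-fold lower, 2.31 to 2.75). Tfam, which packages mitochondrial DNA and starts its transcription, had 25 and 66 (2.64-fold lower, 1.64 to 4.37). Tfb2m, the other initiation factor of mitochondrial transcription, had 894 and 526 (1.70-fold higher, 1.52 to 1.90). Nrf1, Tfam and Gabpa have transcripts of 4042, 4167 and 4987 nt, in the length class whose median was 0.16. Ppargc1a, a coactivator of respiratory genes, had 0 counts in both libraries. Of the same list, Ppargc1b had 0 and 2, and Pprc1 had 9034 counts in siDnmt1 and 7128 in scrambled. Of the 9 genes that exchange ADP, ATP and phosphate across the membranes, 5 were compared and 0 passed 2-fold in either direction (median -0.21). Slc25a3, the phosphate carrier, had 9155 and 6728, Vdac1 288 and 155, Vdac2 60 and 104, and Ucp2 18 and 24. Whether these lists differ from the subunit genes was not tested.

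Some counts are uncertain for reasons of annotation. Of the 26 genes compared, 6 have at least 1 annotated pseudogene that aligns over at least 200 bases at 90% identity or more (Atp5b, Atp5c1, Atp5o, Ndufa11, Ndufb11 and Uqcrb), and how reads with several matches were treated is not given in the sources used here. Uqcrb had 4 such copies. Of all 93 genes, 29 had at least 1. Among those under the count minimum, Atp5l had 13 copies, Atp5h 6, and Cox7b and Atp5g1 4 each. Ndufaf2, also under the minimum, shares 65.6% of its exon bases with a noncoding gene on the opposite strand. Ndufb11 shares 12.9% of its exon bases with Rbm10 (217 counts in siDnmt1 and 253 in scrambled) and Cox4i1 shares 9.94% with Emc8 (101 and 176), both on opposite strands.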

How the data were processed

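Each of the 2 libraries was made from a pool of 20 embryos by pico-profiling with 20 cycles of PCR and sequenced from both ends, per the labels' protocols. Trim Galore, HISAT2, HTSeq, DESeq2 and mm9 are named in the submitters' processing notes, without versions. The deposited table holds whole-number counts per gene symbol. It is described as DESeq2-normalised, and recomputed size factors were 1, which a normalised table would also give. The low values of the authors' columns were therefore looked at (a step chosen with the data in view): every whole number from 1 to 39 occurs, with 0 gaps in either column, and between 2 and 30 the frequency of a value reached at most 1.23 times the average of the adjacent values in siDnmt1 and 1.29 times in scrambled. The values were used as unscaled counts, and the counting intervals rest on that. A scaling that leaves no such trace cannot be told apart. Both value columns carry the name of their library. Each group being 1 library, no test could be fitted. Genes and lists were chosen with earlier results of these data known. Named are all member genes that average 20 counts or more, the others with at least 10 counts in a library, the tissue forms, and the 2 highest and 2 lowest of each pathway list (all where fewer than 5). A gene that this rule picks from a pathway list is not reported here. Lengths came from GENCODE M21 on GRCm38 for all 93 genes and 7273 of the 7315 genes compared, and a lowess curve (span 0.3) removed the length trend. Any further gene was picked with its values in view. The size rule, the intervals and the trend removal were tested on simulated data. The simulated counts were Poisson draws and the simulated length trend was linear, so spread beyond counting error was not tried. Alternatives were other pseudocounts (1 and 20), filters, scalings, a 4-fold threshold, subunits only and the length trend. Promoter windows are from RefSeq on GRCm38.p6, and no coordinates on mm9 are given. Tools were Python 3.11.15, pandas 2.3.3, scipy 1.17.1, statsmodels 0.14.6, blastn 2.17.0, R 4.3.3, edgeR 4.0.16 and DESeq2 1.42.0.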

Additional observations from a re-analysis of the deposited data

How the results depend on the processing

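The lower direction of the member median held under every pseudocount, filter, scaling and length trend run, with values from -1.27 to -0.22. Counts of genes at least 2-fold lower moved from 15 of 26 to 31 of 87 without the filter (median -0.65). All genes then had 15.6% lower. At a mean of at least 100 counts 6 of 9 were lower, where 11.4% of all genes were. After removal of the length trend it was 6 of 26 (median -0.22), where 14.0% of all genes were. At a 4-fold threshold 4 of 26 were lower, where 4.51% of all genes were. Counts of genes at least 2-fold higher moved from 1 of 26 to 3 of 26 with a pseudocount of 1 (13.6% of all genes compared). They were 3 of 25 with equal totals without Rn45s (14.5%) and 3 of 26 with the longest (12.9%) or median (13.2%) length trend. Without the filter they were 6 of 87 (12.4%). With a pseudocount of 20 they were 0 of 26 (9.28%), and at a mean of at least 100 counts 0 of 9 (9.33%). They were 0 of 26 at a 4-fold threshold (2.64%) and 0 of 23 with subunits only (12.5%). Without the filter the medians of complexes I and III were -0.36 and -0.92. With the length trend removed they were -0.61 and -0.79, and that of complex IV reversed to 0.41, as did the log2 ratio of Cox7a1 (0.45). At a mean of at least 100 counts complex IV is Cox8a alone (-1.73), and with subunits only complex V had a median of -1.10. The trend on median transcript length was added after the data were seen. Complex II has no gene at a mean of at least 100 counts. DESeq2 size factors were 1 for both libraries and left all values as they were. Fewer genes are tested under stricter filters, and otherwise the cause was not tested. The 67 genes under 20 counts are limited by their low counts, and whether depth, length or annotation made them low was not tested. No paired analysis was possible because each group has 1 library.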

Other observations

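Read per kb of transcript, the order of the most abundant oxidative phosphorylation genes differed between the libraries. In siDnmt1 the order was Atp5b (1528 counts per kb), Atp5a1 (533) and Cox8a (391). In scrambled it was Atp5b (1388), Cox8a (1320), Ndufb11 (449) and Atp5a1 (395). Ndufb11 had 174 in siDnmt1, level with Atp5j at 174. Without replicates the spread of these levels is not known.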
